A study of Mus musculus with 6 samples.

Results

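The genes described here are the drug- and aldehyde-metabolising enzymes of the glutathione transferase (GST, with the membrane-bound MGST), glucuronosyltransferase (UGT), sulfotransferase (SULT), carboxylesterase (CES), flavin monooxygenase (FMO), aldehyde dehydrogenase (ALDH) and aldo-keto reductase (AKR1) families, in mouse lung squamous cell carcinomas that express a mutant NSD3 (PSCN) against tumours of the same model without it (PSC). Members were taken by the letters their symbols start with. The authors counted 46937 symbols, of which 127 matched; 8 pseudogenes, the matrix protein gene FMOD, which shares only the letters, and 34 symbols with under 30 counts in all were left out, 17 of them without a count in any library. The remaining 84 entries held 2 pairs with identical counts (AKR1C1 with AKR1C2, GSTT2 with GSTT2B), each counted once, so 82 distinct members are described. Of these, 78 passed the filter on low counts and were tested.

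Total RNA of 6 tumour biopsies was sequenced. PSCN tumours (3 libraries) carry the activating Pik3ca H1047R allele, a Cdkn2a/b deletion and overexpressed Sox2, and express NSD3 T1242A, a mutant of a histone H3 lysine methyltransferase. PSC tumours (3 libraries), the control, carry the same 3 alterations with wild-type NSD3. The labels do not state that each biopsy came from a different mouse, so p-values measure the spread between these samples only, and the promoters or Cre lines that drive the alleles are not given in the sources used here. The comparison asks how transcript levels differ when the mutant methyltransferase is expressed.

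These enzymes make foreign and internal compounds easier to excrete or turn reactive carbonyls into acids and alcohols. GSTs join glutathione to electrophiles, UGTs add glucuronic acid and SULTs a sulfonate group, CESs cut esters and amides, FMOs add oxygen to nitrogen and sulfur atoms, ALDHs oxidise aldehydes, among them retinal, and AKR1 enzymes reduce aldehydes and ketones. In the mouse lung, many of them are known from the secretory club cells of the airway lining. Several also act in squamous epithelium, where SULT2B1 makes cholesterol sulfate.

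Total counts lay between 69563622 and 72807077 per library. NSD3 stood at 821, 918 and 1932 CPM in PSCN libraries 1, 2 and 3, against 79.7, 96.7 and 102 CPM in PSC libraries 1, 2 and 3, so its levels follow the labels (CPM, counts scaled to the TMM-adjusted library size). The groups thus differ in the amount of NSD3 transcript as well as in the mutation, and the 2 cannot be told apart here. PSC library 3 stood apart from its group: its log2 CPM correlated at 0.941 on average with the PSCN libraries and at 0.908 with the other PSC libraries, across genes, which are not independent replicates. The transcripts XIST and DDX3Y showed that PSC libraries 2 and 3 came from females and the other 4 libraries from males. Summed squamous markers (12 genes) reached 13230, 28520 and 9863 CPM in PSCN, against 170, 1808 and 6889 CPM in PSC, and summed club cell markers (13 genes) reached 2269, 774 and 1888 CPM in PSCN, against 28700, 19320 and 4242 CPM in PSC. In a bulk biopsy, fewer cells of a type and less RNA per cell cannot be told apart.

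No member passed the main test, edgeR's quasi-likelihood test with Benjamini-Hochberg adjustment over all 21201 genes tested, in which 0.00472% of genes were called higher in PSCN and 0% lower. The smallest adjusted p among members was 0.137, shared by CES1, CES1E and MGST1. At an unadjusted p under 0.05, 8 members were higher in PSCN (10.3% of 78, against 9.48% of all genes tested) and 33 were lower (42.3%, against 12.2%). The groups did not overlap in 8 members that were higher in PSCN (10.3%, against 15.2% of all genes) and in 22 that were lower (28.2%, against 13.4%). Fold changes were negative, meaning a lower level in PSCN, in 57 of 78 members, 73.1% against 50.9% of all genes. The median log2 fold change of PSCN over PSC was -1.01 over the members tested and -0.01 over all genes tested.

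Whether members were called depended on PSC library 3 and on the tool. With that library left out, the same test called 2 members higher in PSCN (ALDH1L2 and GSTO1) and 24 lower among the 80 members then tested, where 3.39% of all genes were called higher and 5.4% lower. PSC library 3 was nearer to the PSCN mean than to the mean of the other PSC libraries in 58 members (74.4%), against 62.1% of all genes. Leaving out the PSC library nearest to PSCN widens the differences between groups. Calls made without it, here and below, are therefore no independent support. With any other single library left out, 0 members were called. In the authors' deposited table, which comes from DESeq2, 5 members were called higher and 28 lower at an adjusted p under 0.05, where 3.92% and 8.1% of all genes with an adjusted p were called. DESeq2 run here called 5 members higher and 29 lower (5.42% and 8.89% of all genes), and for limma-voom with quality weights the counts were 5 and 19 (8.43% and 5.84% of all genes).

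**Figure D1:**
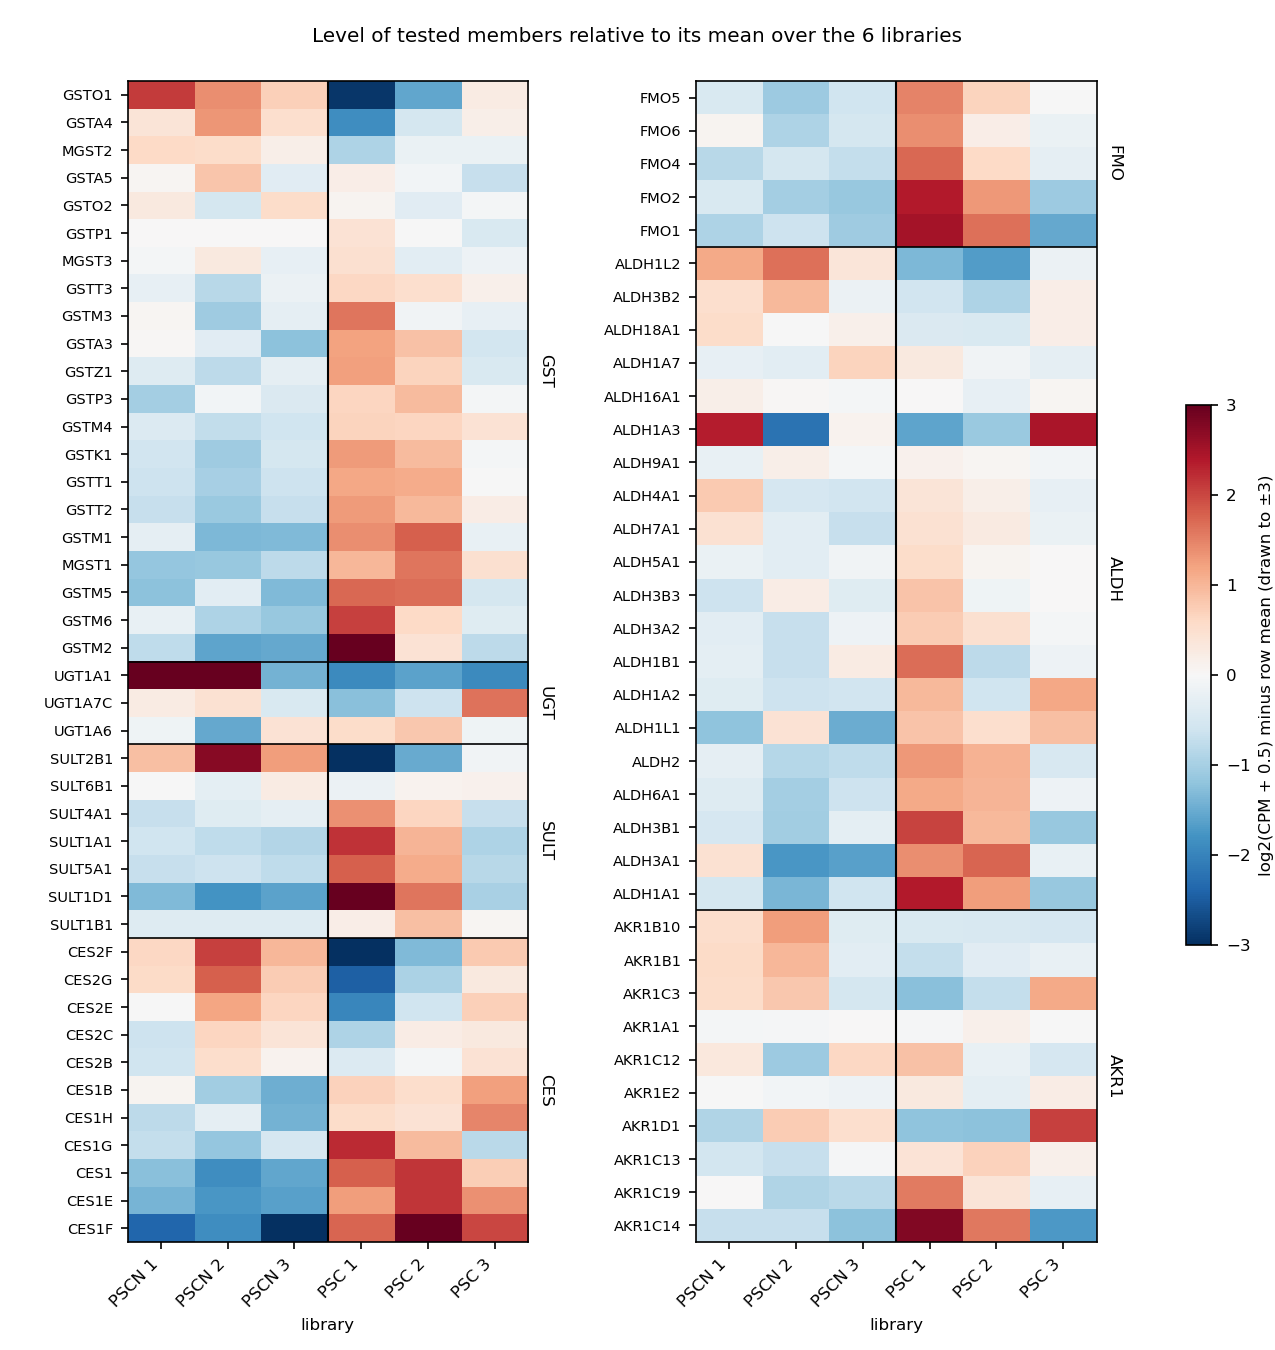
The tested members, 1 left out (vertical axis, grouped by family and ordered by fold change) in each library (horizontal axis). Colour is log2 of CPM plus 0.5 minus the member's mean over the 6 libraries. PSC libraries 1 and 2 are red for most GST, FMO and CES1 members, while PSC library 3 is nearer to the PSCN libraries in 58 of the 78 members.

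The GST family had 21 members, all tested, 5 with positive and 16 with negative fold changes and a median log2 fold change of -1.13. The most abundant was GSTO1, an omega-class enzyme that reduces dehydroascorbate and methylated arsenic species (ENSMUSG00000025068.8, chromosome 19 from 47854970 to 47864790 in GRCm38). GSTO1 had 5511, 3369 and 2109 CPM in PSCN libraries 1, 2 and 3, against 168, 432.5 and 1528 CPM in PSC libraries 1, 2 and 3. The groups did not overlap, and PSC library 3 came closest to the PSCN values. Its log2 fold change was 2.37 (SE 0.87, adjusted p = 0.208 in edgeR), and 3.62 without PSC library 3, where it was called (adjusted p = 0.0464). GSTO1 was not called without PSC library 1 (1.90) or without PSC library 2 (2.11). GSTO1 alone made up 65.5%, 49% and 44% of the summed CPM of the 82 members in PSCN libraries, against 2.95%, 7.29% and 33.2% in PSC libraries. Without it, the members summed to 2906, 3508 and 2688 CPM in PSCN, against 5528, 5500 and 3069 CPM in PSC. PSC libraries 1 and 2 had the highest of these sums, and the groups overlapped, since PSCN library 2 was above PSC library 3. Per kilobase of exon, GSTO1 also led the 74 members with a known length, at a mean of 1811 CPM per kilobase in PSCN and 351 in PSC, followed by GSTA4 with 642 in PSCN and 257 in PSC. The neighbour of GSTO1 on chromosome 19, GSTO2 (chosen after its values were seen), averaged 1.94 ± 0.864 CPM in PSCN and 1.52 ± 0.3 CPM in PSC (SD, n = 3 each).

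GSTA4, an alpha-class enzyme that conjugates the lipid peroxidation product 4-hydroxynonenal, had 609, 1169 and 662 CPM in PSCN, against 129, 323 and 525 CPM in PSC. No PSC library reached the lowest PSCN one, and the log2 fold change was 1.32 (SE 0.55). MGST2, a microsomal enzyme that can make leukotriene C4, averaged 29 ± 4.54 CPM in PSCN and 15.7 ± 4.22 CPM in PSC. MGST1, the abundant microsomal transferase that also reduces lipid hydroperoxides (chromosome 6 from 138140316 to 138156755), was the reverse: it had 60.2, 62 and 78.3 CPM in PSCN, against 272, 416 and 191 CPM in PSC. Here PSC library 3 stayed with its own group, at more than the highest PSCN level. The log2 fold change was -2.13 (SE 0.32, adjusted p = 0.137 in edgeR), and MGST1 was called without PSC library 3 (adjusted p = 0.0397).

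All 6 mu-class genes (GSTM), which handle a broad range of aromatic electrophiles, had negative fold changes, with a median of -2.15 on the log2 scale. They lie side by side within 149 kb of chromosome 3, from 107895821 to 108044894. Summed, they reached 77.7, 86.8 and 56.5 CPM in PSCN, against 455, 414 and 103 CPM in PSC, a mean log2 difference of -1.89 with no overlap (exact permutation test, two-sided p = 0.1, the smallest that 3 against 3 libraries can give). GSTM4, a low-level member, had the smallest SE of the 6, with 3.91, 3.04 and 3.4 CPM in PSCN and 8.77, 8.7 and 7.37 CPM in PSC (log2 fold change -1.26, SE 0.24). GSTM5, chosen after its values were seen as the most abundant of the group, had 34.8, 65.9 and 32.7 CPM in PSCN, against 276, 267 and 57.4 CPM in PSC. Its groups overlapped through PSC library 3 alone. The near-identical sequences of mu-class genes can share reads, so values of single members are less certain than the sum.

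The 3 theta-class genes (GSTT), which act on small halogenated compounds, lie within 63.3 kb of chromosome 10, and in each the PSCN values were below the PSC values without overlap. That held for 13.4% of all genes tested. GSTT2 had 3.73, 2.67 and 3.7 CPM in PSCN, against 16.1, 12.9 and 7.42 CPM in PSC (log2 fold change -1.85, SE 0.36). GSTT1 averaged 12 ± 1.75 CPM in PSCN and 36.9 ± 14.5 CPM in PSC, and GSTT3 averaged 21.3 ± 5 CPM in PSCN and 38.5 ± 6.5 CPM in PSC. GSTP1, the pi-class enzyme prominent in many carcinomas, averaged 35.6 ± 0.186 CPM in PSCN and 36 ± 11 CPM in PSC, a log2 fold change of -0.02 (SE 0.24). GSTK1, the kappa-class enzyme of mitochondria and peroxisomes, averaged 7.04 ± 1.49 CPM in PSCN and 21.3 ± 9.24 CPM in PSC. Without PSC library 3, the called GST members lower in PSCN were GSTK1, GSTM1, GSTM4, GSTM5, GSTT1, GSTT2, GSTZ1 and MGST1.

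**Figure D2:**
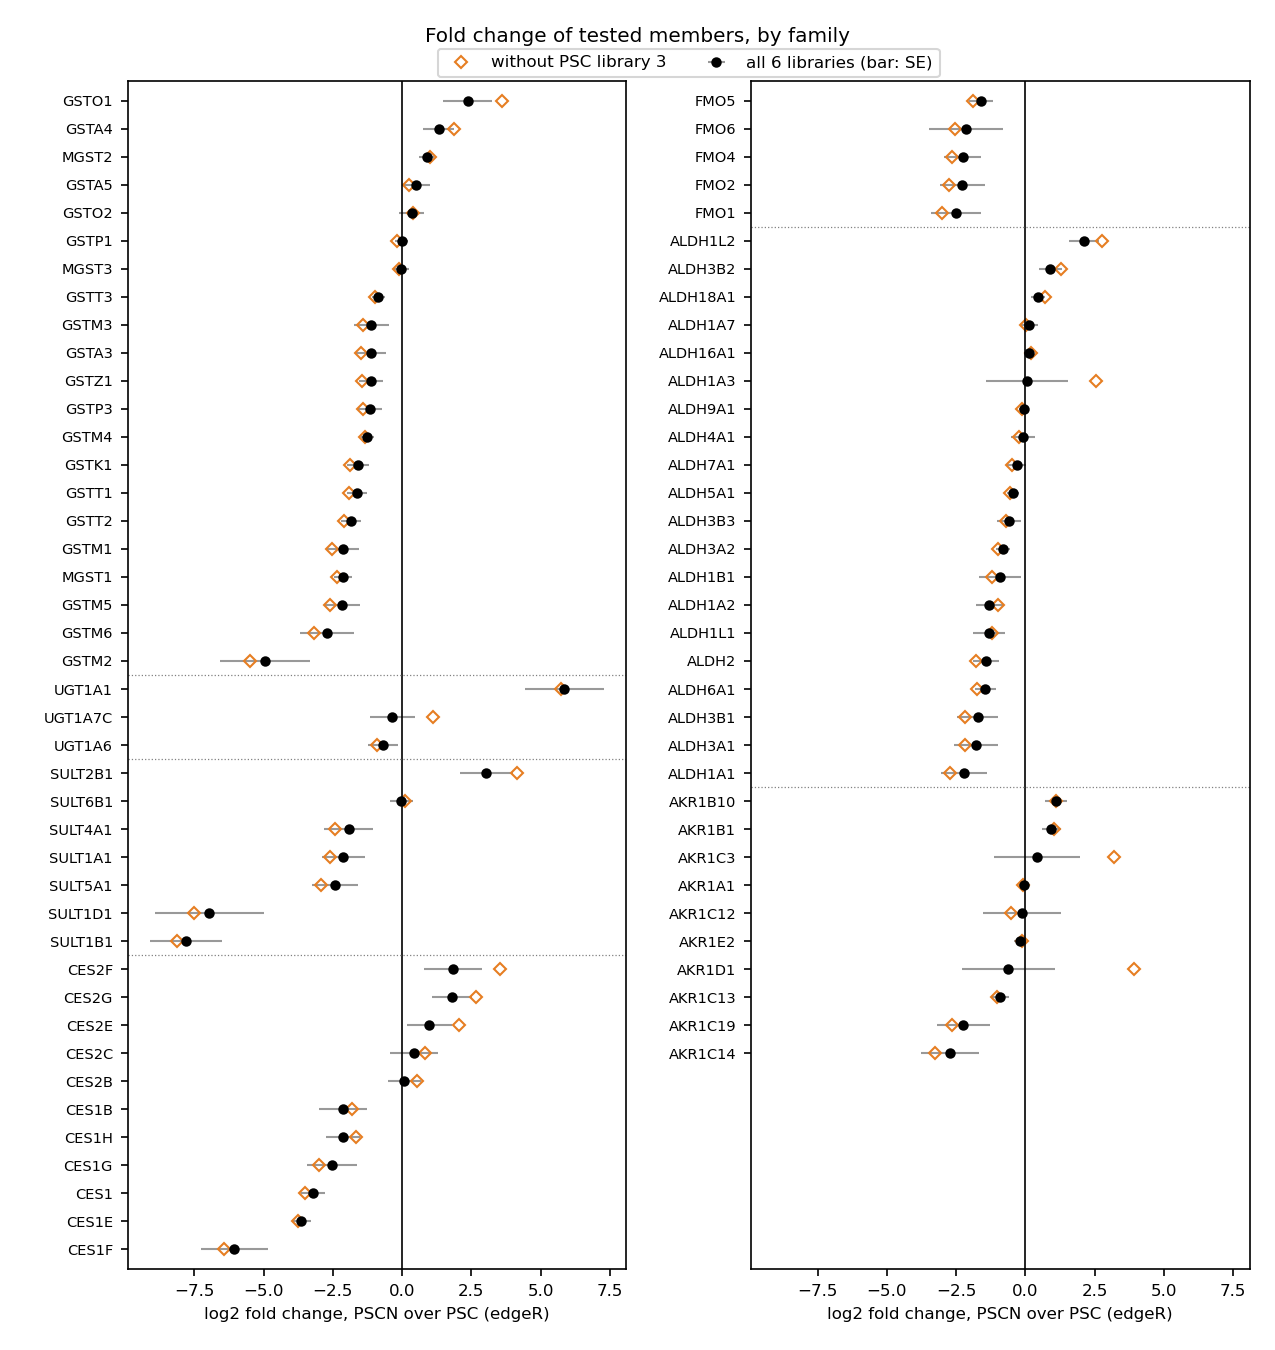
Log2 fold change of PSCN over PSC from edgeR (horizontal axis) for the tested members, 1 left out (vertical axis), by family. Black points with bars are the fit to all 6 libraries with its SE, and orange diamonds are the fit without PSC library 3. All GSTM, CES1 and FMO members drawn lie left of 0 and all CES2 members right of it in both fits.

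The carboxylesterases divided by subfamily. All 6 CES1 members had negative fold changes, with a median of -2.87 on the log2 scale, and 5 of them had no overlap between groups. All 5 CES2 members had positive ones, with a median of 0.99, and 1 of them, CES2G, had no overlap. Over all genes tested, 13.4% were lower and 15.2% higher in PSCN without overlap, so the CES2 count is near that share. The subfamilies sit in separate clusters on chromosome 8, the placed CES1 genes from 93056728 to 93379725 and the CES2 genes from 104831572 to 104969537. CES1 enzymes cut esters with small alcohol groups and, in mouse lung and plasma, are a large source of esterase activity. The entry named CES1 carries a human-style symbol with no mouse gene of that name, so which mouse gene or genes it counts is not known. CES1 had 77.7, 50.9 and 62.6 CPM in PSCN, against 642, 827 and 309 CPM in PSC. The lowest PSC value lay well above the highest PSCN value, and the log2 fold change was -3.22 (SE 0.42, adjusted p = 0.137 in edgeR; 0.0302 without PSC library 3).

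CES1E had 1.63, 1.16 and 1.3 CPM in PSCN, against 12.8, 24 and 14 CPM in PSC (log2 fold change -3.63, SE 0.36). PSC library 3 was again with the other PSC libraries. CES1F, which hydrolyses lipids in mouse liver, had 4.54, 6.74 and 1.03 CPM in PSCN, against 86.7, 627 and 105 CPM in PSC (log2 fold change -6.06, SE 1.21). CES1G was the CES1 member that overlapped, through PSC library 3 at 0.885 CPM. PSC library 3 was nearer to the PSCN mean in 1 of 6 CES1 members, and in 5 of 5 CES2 members. Summed over all CES1 entries, levels were 87.1, 61.1 and 66.7 CPM in PSCN, against 758, 1487 and 439 CPM in PSC, a mean log2 difference of -3.48 (exact permutation test, two-sided p = 0.1, the smallest possible). CES1 genes are close copies of each other, and reads may be divided among them.

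CES2G, chosen after its values were seen, had 110, 254 and 125 CPM in PSCN, against 13, 38.1 and 89.7 CPM in PSC (log2 fold change 1.80, SE 0.73). CES2 enzymes favour esters with large alcohol groups, and human CES2 activates the prodrug irinotecan. CES2F, also outside the naming rule, had 20.7, 56.6 and 26.9 CPM in PSCN, against 1.07, 4.98 and 23.1 CPM in PSC, where PSC library 3 lay within the PSCN range. Summed CES2 entries reached 136, 326 and 162 CPM in PSCN, against 15.6, 47.9 and 124 CPM in PSC, a mean log2 difference of 2.09 (exact permutation test, two-sided p = 0.1, the smallest possible). The difference between the subfamilies' fold changes was not tested.

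**Figure D3:**
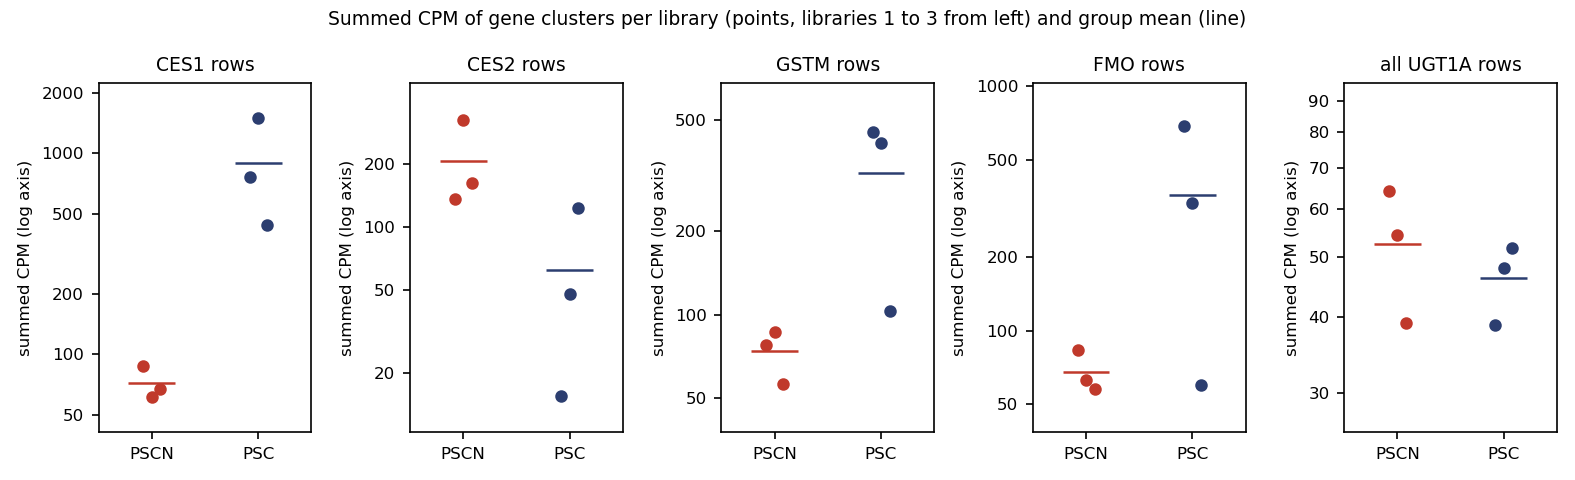
Summed CPM (vertical axes, log scale) of the CES1, CES2, GSTM, FMO and UGT1A entries in each PSCN and PSC library; points are libraries 1 to 3 from the left and lines are group means. The CES1 sums are 61.1 to 87.1 CPM in PSCN and 439 to 1487 CPM in PSC, the CES2 sums lie in the opposite order, and the UGT1A sums overlap.

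Promoter sequences are shown for 5 members that illustrate the 2 directions, from 250 bases before to 50 bases after the start that RefSeq gives, on build GRCm38.p6. Capitals mark matches, on either strand, to the core of the antioxidant response element (TGACNNNGC), which the NRF2 factor binds, or to the core of the xenobiotic response element (GCGTG), which the AHR factor binds. GSTO1 is at chr19:47854723-47855022 on the plus strand, CES2G at chr8:104961468-104961767 on the plus strand, MGST1 at chr6:138140277-138140576 on the plus strand (1 of its 2 windows), GSTM5 at chr3:107895604-107895903 on the plus strand and CES1E at chr8:93229570-93229869 on the minus strand.
GSTO1: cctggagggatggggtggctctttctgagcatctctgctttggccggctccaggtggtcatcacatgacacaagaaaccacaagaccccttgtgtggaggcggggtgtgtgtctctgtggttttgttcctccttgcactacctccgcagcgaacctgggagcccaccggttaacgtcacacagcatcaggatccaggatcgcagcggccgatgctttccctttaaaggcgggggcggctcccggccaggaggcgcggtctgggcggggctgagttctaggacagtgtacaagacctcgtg
CES2G: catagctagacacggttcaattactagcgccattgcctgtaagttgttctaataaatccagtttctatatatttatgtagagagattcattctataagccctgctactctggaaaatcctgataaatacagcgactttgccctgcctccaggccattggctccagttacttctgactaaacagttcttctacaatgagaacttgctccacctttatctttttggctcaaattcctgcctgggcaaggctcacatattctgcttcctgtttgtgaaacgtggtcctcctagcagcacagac
MGST1: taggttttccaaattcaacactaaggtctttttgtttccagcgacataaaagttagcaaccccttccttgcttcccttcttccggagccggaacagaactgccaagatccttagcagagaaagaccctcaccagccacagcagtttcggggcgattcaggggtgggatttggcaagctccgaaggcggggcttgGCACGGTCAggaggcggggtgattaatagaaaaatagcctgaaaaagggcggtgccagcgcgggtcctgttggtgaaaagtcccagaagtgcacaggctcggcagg
GSTM5: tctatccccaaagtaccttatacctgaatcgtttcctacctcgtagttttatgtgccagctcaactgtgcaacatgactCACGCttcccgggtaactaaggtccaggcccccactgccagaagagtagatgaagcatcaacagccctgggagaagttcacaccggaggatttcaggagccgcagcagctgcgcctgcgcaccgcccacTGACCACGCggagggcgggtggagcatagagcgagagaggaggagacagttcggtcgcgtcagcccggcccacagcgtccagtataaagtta
CES1E: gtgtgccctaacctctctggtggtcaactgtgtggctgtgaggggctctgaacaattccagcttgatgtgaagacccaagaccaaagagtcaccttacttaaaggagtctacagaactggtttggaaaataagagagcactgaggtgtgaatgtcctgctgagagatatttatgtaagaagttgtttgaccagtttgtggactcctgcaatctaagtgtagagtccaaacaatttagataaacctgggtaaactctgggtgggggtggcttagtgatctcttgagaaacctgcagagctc
Neither core occurs in the windows of GSTO1, CES2G and CES1E, which differed in direction. The MGST1 window holds 1 antioxidant core, and the GSTM5 window 1 antioxidant core and 2 xenobiotic cores, 1 of which overlaps it. RefSeq promoters were matched for 61 of the 82 members, in 75 windows. The antioxidant core was in 9.33% of these windows, against 12.4% of all 32851 windows, and the xenobiotic core in 24%, against 32.4%. A match is a description of letters, not a binding site.

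All 6 FMO members, which oxygenate soft nucleophiles such as tertiary amines and sulfides, had negative fold changes, with a median of -2.27 on the log2 scale, and 5 had an unadjusted p under 0.05. Of all genes tested, 12.2% were lower at that threshold. Of the 6, 5 lie within 191 kb of chromosome 1, from 162793188 to 162984528, and FMO5 lies alone on chromosome 3. FMO2, the main lung form in many mammals, had 57.3, 38.6 and 35.6 CPM in PSCN, against 408, 194 and 36.6 CPM in PSC. PSC libraries 1 and 2 were far above every PSCN library, and PSC library 3 lay inside the PSCN range. The log2 fold change of FMO2 was -2.28 (SE 0.81), and it was called without PSC library 3 (-2.77, adjusted p = 0.0403).

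FMO1, the form known from fetal liver and adult kidney in humans, had 15, 18.3 and 13.5 CPM in PSCN, against 164, 90.7 and 9.56 CPM in PSC, PSC library 3 being the lowest of all 6. FMO5 was 1 of the 2 members without overlap, with 8.47, 5.29 and 7.7 CPM in PSCN and 34, 18.9 and 11.7 CPM in PSC (log2 fold change -1.59, SE 0.44). FMO4 was the other, with 0.467, 0.695 and 0.558 CPM in PSCN and 5.2, 2.12 and 0.94 CPM in PSC. Across all genes tested, 13.4% were lower in PSCN without overlap. FMO sums were 83, 63 and 57.6 CPM in PSCN, against 686, 334 and 60 CPM in PSC, so the sums overlapped (exact permutation test, two-sided p = 0.3).

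Beside the FMO and CES1 values, the 12 hepatocyte markers, of which 10 symbols were in the table, summed to between 1.45 and 4.16 CPM in PSCN and between 6.88 and 7.48 CPM in PSC, with FGB at 0 in every library and albumin (ALB) at 0 in 5 of 6. Ciliated cell markers (20 genes) summed to 119, 117 and 148 CPM in PSCN, against 1639, 703 and 95.8 CPM in PSC, the same order of PSC libraries as the FMO sums. The club cell and endothelial sums had that order too, and the sums of the other marker lists did not. PSC library 3 was below every PSCN library in the ciliated and endothelial sums. In the club cell sum it stayed above them, at 4242 CPM against at most 2269 CPM. The part of ciliated, club or other cells in the result was not tested.

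**Figure D4:**
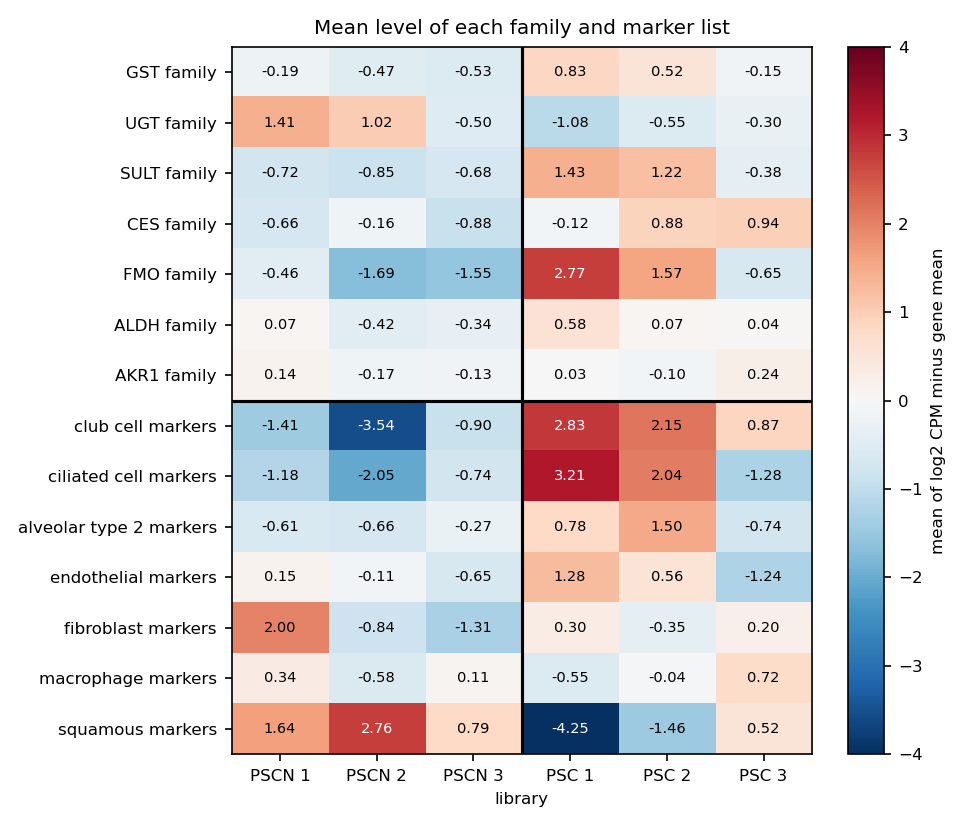
Mean over genes of log2 CPM minus the gene's own mean over the 6 libraries (colour and printed value), for each family and each cell type marker list except hepatocyte and adipocyte (vertical axis) in each library (horizontal axis). The FMO score is 2.77 and 1.57 in PSC libraries 1 and 2 and below 0 in the other 4. The GST, SULT, ciliated cell and alveolar type 2 scores have the same signs. The CES score is highest in PSC library 3 at 0.94, but it joins subfamilies that go opposite ways. Among PSC libraries, library 3 has the lowest CES1 score (1.18) and the highest CES2 score (0.66), neither of them drawn.

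The SULT family had 8 members, of which 7 were tested. SULT2B1, which sulfonates cholesterol in skin and other squamous epithelia (chromosome 7 from 45729983 to 45784669), had 40.9, 146 and 52 CPM in PSCN, against 1.81, 7.22 and 19.9 CPM in PSC. The groups did not overlap, and the log2 fold change was 3.04 (SE 0.97, adjusted p = 0.193 in edgeR; 4.15 without PSC library 3, adjusted p = 0.0597). PSCN library 2, the highest for SULT2B1, was also the highest for the summed squamous markers, and PSC library 1 the lowest for both. That relation was not tested.

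The other 6 tested SULT members had negative fold changes. SULT1D1, which acts on catecholamines and eicosanoids, had 0.19, 0 and 0.0698 CPM in PSCN, against 28, 4.75 and 0.381 CPM in PSC. The groups did not overlap, but PSC library 3 was much closer to PSCN than to PSC library 1. SULT1B1, which acts on thyroid hormone and small phenols, had no count in any PSCN library and 0.256, 0.726 and 0.177 CPM in PSC. Against a floor of 3 counts over the PSCN group, it was at least 26.6-fold lower in PSCN. SULT1A1, the general phenol sulfotransferase, had 4.01, 3.52 and 3.24 CPM in PSCN, against 30.4, 13.4 and 3.1 CPM in PSC, with PSC library 3 below all PSCN libraries. Without PSC library 3, SULT1A1, SULT1D1 and SULT5A1 were called lower.

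The UGT family was small: 4 members had 30 counts or more, and 3, all UGT1A, were tested. UGT1A1, the bilirubin-conjugating form, had 31.6, 33.1 and 0.642 CPM in PSCN, against 0.31, 0.502 and 0.313 CPM in PSC. The groups did not overlap, but PSCN library 3 was near the PSC level, and the log2 fold change of 5.85 (SE 1.42, adjusted p = 0.187 in edgeR) rests on PSCN libraries 1 and 2. UGT1A6, which conjugates simple phenols, had 21.3, 7.76 and 31.6 CPM in PSCN, against 34.8, 41.5 and 21.4 CPM in PSC. UGT1A7C had 11.3, 13.1 and 6.75 CPM in PSCN, against 3.64, 5.93 and 30.1 CPM in PSC; its log2 fold change was -0.35 (SE 0.82) and 1.13 without PSC library 3. The forms of this locus, on chromosome 1, differ in their first exon and share the remaining exons, so how counts are divided among them is uncertain. Summed over all UGT1A entries, the levels were 64.2, 54.4 and 39.1 CPM in PSCN, against 38.8, 48.1 and 51.9 CPM in PSC, and the groups overlapped (exact permutation test, two-sided p = 0.4). PSCN libraries 1 and 2, on which the UGT1A1 difference rests, had the highest sums. The overlap came from PSCN library 3, where UGT1A1 was also near the PSC level. UGT2B10, under a human-style symbol, had 3, 5 and 0 counts in PSCN and 24, 19 and 0 counts in PSC.

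The ALDH family had 20 members, all tested, with 6 positive and 14 negative fold changes and a median of -0.51 on the log2 scale. ALDH1A1, which oxidises retinal to retinoic acid (chromosome 19 from 20492715 to 20643465), had 101, 56.5 and 95.7 CPM in PSCN, against 769, 347 and 66.5 CPM in PSC. PSC library 3 lay inside the PSCN range, and the log2 fold change was -2.22 (SE 0.83; -2.71 without PSC library 3, adjusted p = 0.0415). ALDH2, the mitochondrial enzyme that clears acetaldehyde, had 154, 102 and 108 CPM in PSCN, against 453, 380 and 132 CPM in PSC. Only PSC library 3 met the PSCN range. ALDH6A1, of valine breakdown, had 25.6, 16.2 and 21.5 CPM in PSCN, against 73.9, 68 and 29.9 CPM in PSC, with no overlap (log2 fold change -1.44, SE 0.38). ALDH3A2, the fatty aldehyde dehydrogenase, had 57.9, 44.4 and 65.2 CPM in PSCN, against 123, 101 and 69 CPM in PSC, also with no overlap.

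ALDH1L2, the mitochondrial formyltetrahydrofolate dehydrogenase of one-carbon metabolism (chromosome 10 from 83487450 to 83534140), was the ALDH member with the largest positive fold change. It had 36.4, 52.1 and 21 CPM in PSCN, against 6.1, 4.75 and 14.3 CPM in PSC, with no overlap. The log2 fold change was 2.12 (SE 0.54, adjusted p = 0.187 in edgeR), and ALDH1L2 was called without PSC library 3 (2.76, adjusted p = 0.0428). Its cytosolic counterpart ALDH1L1, chosen after its values were seen, had 4.56, 15.3 and 3.63 CPM in PSCN, against 20.6, 16.1 and 21.2 CPM in PSC, without overlap in the other direction. ALDH1A3, another retinal dehydrogenase chosen after its values were seen, varied widely within each group, with 79.7, 2.84 and 16.2 CPM in PSCN and 4.7, 6.71 and 84.2 CPM in PSC. Its log2 fold change was 0.05 (SE 1.49) with all libraries and 2.54 without PSC library 3.

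The AKR1 family had 12 distinct members, 10 tested, with 3 positive and 7 negative fold changes and a median of -0.15 on the log2 scale. AKR1A1, the aldehyde reductase of vitamin C synthesis in mice, had 380, 385 and 399 CPM in PSCN, against 388, 437 and 390.3 CPM in PSC, a log2 fold change of -0.06 (SE 0.15). AKR1B10, an aldose reductase relative, had 58, 97.2 and 31.3 CPM in PSCN, against 29.5, 29 and 28.6 CPM in PSC. The PSC values were almost equal, and the PSCN values were higher without overlap, in library 3 only slightly (log2 fold change 1.10, SE 0.40). AKR1B1, aldose reductase itself under a human-style symbol, had 121, 163 and 65.4 CPM in PSCN, against 49.4, 64 and 69 CPM in PSC, and overlapped. AKR1C13, a hydroxysteroid dehydrogenase, had 3.37, 3 and 4.95 CPM in PSCN, against 6.98, 8.63 and 5.79 CPM in PSC (log2 fold change -0.92, SE 0.31). AKR1C14, outside the naming rule, was the AKR1 member called lower without PSC library 3; it had 6.2, 6.15 and 4.07 CPM in PSCN, against 73.5, 31.7 and 2.75 CPM in PSC.

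**Figure D5:**
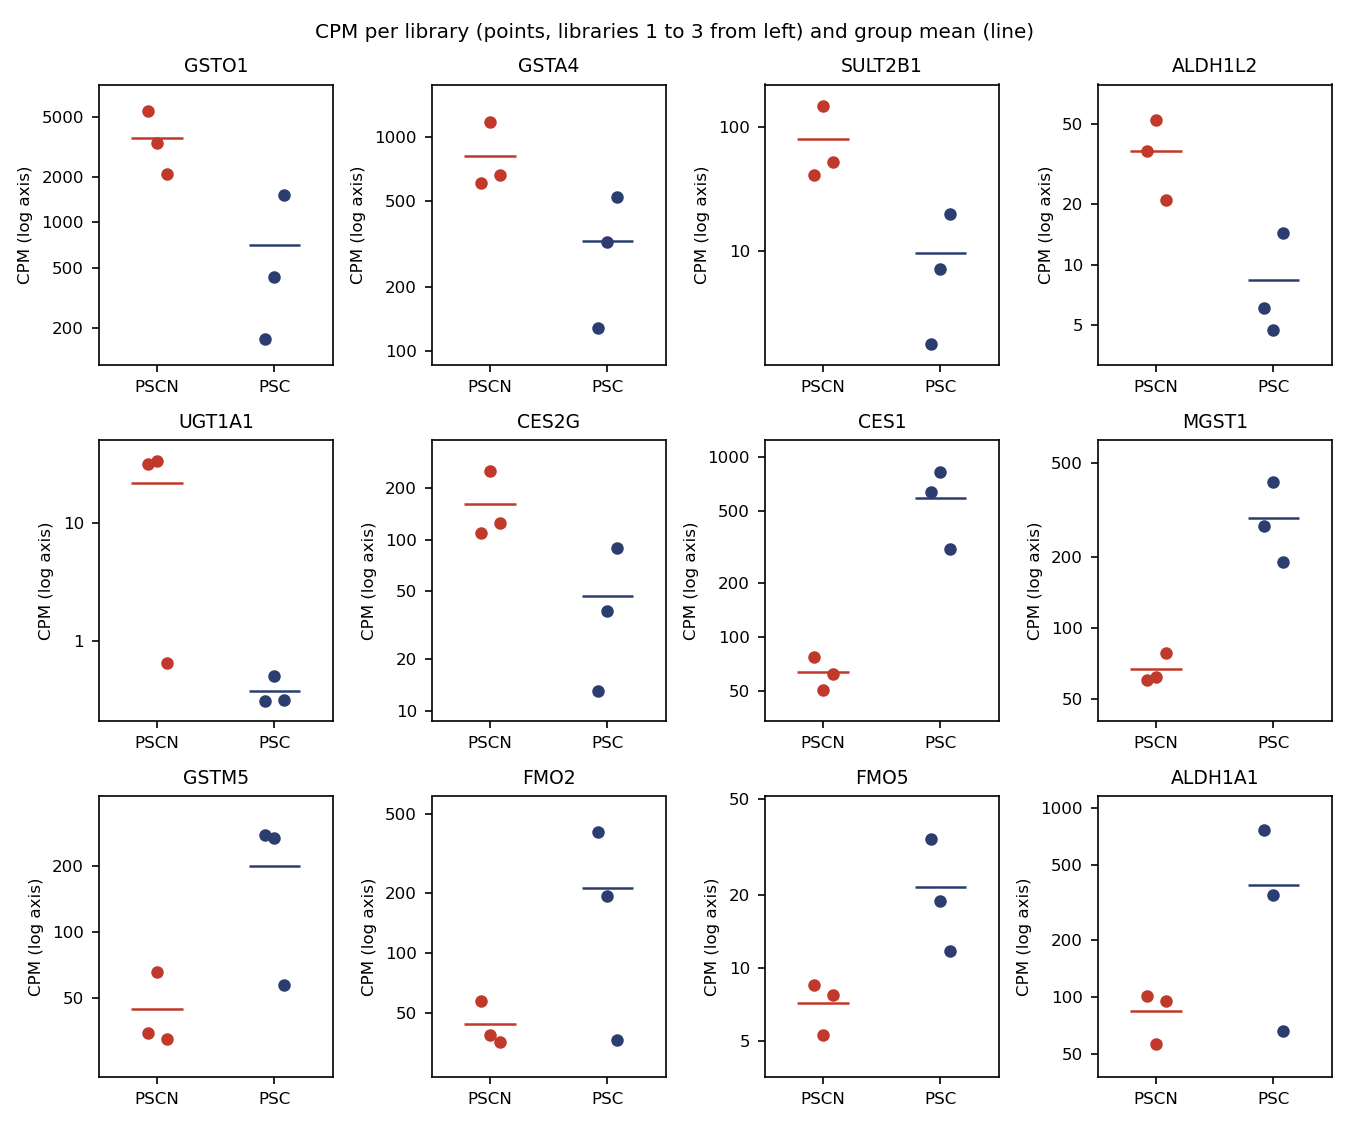
CPM (vertical axes, log scale) of 12 members in each PSCN and PSC library; points are libraries 1 to 3 from the left and lines are group means. GSTO1, GSTA4, SULT2B1, ALDH1L2, UGT1A1 and CES2G have every PSCN point above the PSC points, CES1, MGST1 and FMO5 have every PSCN point below them, and GSTM5, FMO2 and ALDH1A1 overlap through PSC library 3.

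Genes around these enzymes were read from lists of sensors, cosubstrate supply, other drug-metabolising enzymes, efflux transporters and retinoid handling. In these lists no gene passed the adjusted test in edgeR, and the median log2 fold changes were -0.08 for sensors, -0.02 for cosubstrate genes, -0.015 for other enzymes, -0.35 for transporters and -0.15 for retinoid genes. Of 19 xenobiotic sensors and their partners tested, 1 was higher and 4 were lower at an unadjusted p under 0.05 in edgeR. Among all genes tested, 9.48% were higher and 12.2% lower at that threshold. The lipid sensor PPARG had 3.08, 3.66 and 3 CPM in PSCN, against 9.52, 15.6 and 9.33 CPM in PSC (log2 fold change -1.82, SE 0.30), and its coactivator PPARGC1A had 2.81, 0.85 and 2.71 CPM in PSCN, against 19.9, 11 and 9.4 CPM in PSC. PPARA, the fatty acid sensor, averaged 0.922 ± 0.443 CPM in PSCN and 4.13 ± 2.77 CPM in PSC. The antioxidant factor NFE2L2 (NRF2) and the dioxin receptor AHR, chosen after their values were seen, differed by 0.29 (SE 0.19) and 0.22 (SE 0.17) on the log2 scale.

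Of 17 cosubstrate genes tested, 0 were higher and 4 lower at an unadjusted p under 0.05 in edgeR, and 0 of either direction when adjusted. The unadjusted shares over all genes tested were 9.48% higher and 12.2% lower. GCLM, the modifier subunit of glutathione synthesis, averaged 58.4 ± 4.31 CPM in PSCN and 78.4 ± 2.53 CPM in PSC, without overlap. GCLC, its catalytic partner, had 91, 83.5 and 126 CPM in PSCN, against 171, 159 and 121 CPM in PSC, and IDH1, a source of NADPH, averaged 128 ± 10.7 CPM in PSCN and 183 ± 31.4 CPM in PSC. Of 21 other drug-metabolising enzymes tested, 0 were higher and 4 lower at that threshold. PON3, a lactonase, had 41, 33 and 48 CPM in PSCN, against 115, 97.4 and 75.6 CPM in PSC. PON1, its relative, had 3.34, 1.33 and 3.79 CPM in PSCN, against 92.3, 55.3 and 5.71 CPM in PSC, and the aldehyde oxidase AOX3 had 12.1, 4.93 and 12.6 CPM in PSCN, against 141, 180 and 24.7 CPM in PSC. These 3 were without overlap and were each called without PSC library 3. Of 10 efflux transporters tested, 0 were higher and 1 lower, the latter near the share of all genes. The 1 lower was the conjugate exporter ABCC3, with 28.4, 14.7 and 18.2 CPM in PSCN and 77.3, 47 and 40.2 CPM in PSC. The glutathione conjugate exporter ABCC1 averaged 128 ± 20.4 CPM in PSCN and 94.2 ± 18.6 CPM in PSC, and the drug pump ABCB1B 12.6 ± 3.25 CPM in PSCN and 8.56 ± 2.37 CPM in PSC.

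Of 18 retinoid genes tested, 1 was higher and 3 were lower at an unadjusted p under 0.05 in edgeR, against 9.48% and 12.2% of all genes tested. RARB, the retinoic acid receptor that is itself a retinoic acid target, had 2.26, 1.27 and 1.97 CPM in PSCN, against 25.6, 11.6 and 4.48 CPM in PSC (log2 fold change -2.92, SE 0.68). CRABP1, a retinoic acid binding protein, averaged 0.236 ± 0.177 CPM in PSCN and 3.11 ± 2.63 CPM in PSC. RDH11, a retinal reductase, averaged 41.3 ± 4.32 CPM in PSCN and 26.8 ± 5.59 CPM in PSC.

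Cell type markers were also read, and not every list separated the groups. No marker passed the adjusted test in edgeR with all 6 libraries. All 13 club cell markers had negative fold changes with a median of -3.97 on the log2 scale, and 10 had no overlap between groups, against 13.4% of all genes that were lower without overlap. SCGB1A1, the defining club cell secretoglobin, had 941, 360.5 and 995 CPM in PSCN, against 22220, 10730 and 572 CPM in PSC, so PSC library 3 lay inside the PSCN range for it. CYP2F1, a cytochrome P450 under a human-style symbol, had 876, 188 and 382 CPM in PSCN, against 3076, 5695 and 1772 CPM in PSC, without overlap, as in MGST1 and most CES1 members. Alveolar type 2 markers (10 genes) summed to between 2515 and 3280 CPM in PSCN and between 1876 and 14010 CPM in PSC. Surfactant proteins led them, SFTPC with 1113, 1363 and 1459 CPM in PSCN and 2635, 7437 and 301 CPM in PSC, and SFTPB with 396, 296.5 and 431 CPM in PSCN and 2365, 1703 and 216 CPM in PSC. FOXJ1, the ciliated cell factor, had 13.7, 6.15 and 24.4 CPM in PSCN, against 250.2, 119 and 13.4 CPM in PSC, and CFAP43 had 52, 76.2 and 50.6 CPM in PSCN, against 133, 70.3 and 39.4 CPM in PSC. For all 4, PSC library 3 was at or below the PSCN values or among them. Of 12 squamous markers 11 had positive fold changes, and KRT14 had 3519, 10420 and 2099 CPM in PSCN, against 44.7, 507 and 1883 CPM in PSC. Its partner KRT5 had 3487, 7319 and 2678 CPM in PSCN, against 52.1, 575 and 2035 CPM in PSC. Fibroblast markers (10 genes) summed to 43580 CPM in PSCN library 1 and to between 1475 and 4860 CPM in the other 5 libraries, led by the collagens COL1A1 and COL1A2, which stood at 19230 and 16830 CPM in PSCN library 1. Endothelial markers (8 genes) summed to between 461 and 821 CPM in PSCN and between 326 and 1780 CPM in PSC, macrophage markers (9 genes) to between 488 and 1023 CPM in PSCN and between 423 and 1188 CPM in PSC, and adipocyte markers (8 genes) to between 42.9 and 59 CPM in PSCN and between 40.9 and 119 CPM in PSC. Fold changes were negative in 7 of 8 endothelial markers (median -0.69 on the log2 scale) and in 7 of 9 macrophage markers (median -0.20), with overlap between groups in each gene of both lists. The adipocyte sums are mostly LIPE and FABP4, with log2 fold changes of 0.05 (SE 0.36) and -0.08 (SE 0.61). Of the 6 adipocyte markers tested, 5 had negative fold changes, with a median of -3.07 on the log2 scale. The lipid droplet gene PLIN4 had 0.583, 0.402 and 0.642 CPM in PSCN, against 25.2, 2.53 and 1.59 CPM in PSC, without overlap. The adipokine CFD had 0, 0.17 and 0 CPM in PSCN, against 9.37, 0.172 and 2.31 CPM in PSC. Its lack of overlap rests on near-equal low values in PSCN library 2 and PSC library 2. The defining markers ADIPOQ and LEP had no count in any PSCN library and at most 0.999 and 0.176 CPM in PSC. The part of these cell types in the enzymes' values was not tested.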

How the data were processed

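Total RNA was made into stranded libraries and read as paired 76 nt ends, per the labels' protocols. Per the submitters' processing notes, Trimmomatic, HISAT2, StringTie and DESeq2 were used with GRCm38. Tool versions and the strand setting of the counting are not given in the sources used here; reads of overlapping genes cannot be told apart. The authors deposited estimated counts per gene symbol as whole numbers, with no normalization, and next to them a mean normalized signal, the log2 fold change (PSCN over PSC) and its SE, a test score, and p-values with adjusted p-values. The table's columns carry a letter and a number, read here as group and replicate, which no label states outright.

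Here, filterByExpr left 21201 genes, TMM factors were applied, and edgeR 4.0.16 in R 4.3.3 (quasi-likelihood test, Benjamini-Hochberg over all genes tested, threshold 0.05) compared 3 PSCN with 3 PSC libraries, without covariates. SEs come from the fold change and its F value (estimate over root F). Summed CES1, CES2, GSTM, FMO and UGT1A entries were compared by exact permutation of the library labels. That test was not in the plan, and other subfamilies were not summed. Its p cannot fall below 0.1 and so cannot reach the threshold. Levels are given as CPM. Gene positions are from GENCODE M21, with 74 of 82 members placed; the other 8 carry symbols with no mouse gene of that name. Named genes were, in each of the 7 families, the 2 with the highest mean CPM and the 3 with the smallest p, up to 3 genes of each pathway list by p and the 2 highest of each marker list; any other gene named was chosen after its values were seen. Members and lists were chosen with earlier results of these data known. Depth limits members near 0 CPM. Reads carried no molecular identifiers, so the floor of 3 counts covers counting error only. Alternatives were RLE and upper quartile normalization, no filter, a filter of 1 CPM in 3 libraries, DESeq2 1.42.0, limma-voom (3.58.1) with quality weights, each library left out, a replicate block, sex as a covariate and male libraries only. The fit was tested on simulated data. The values of 1 member are not reported here, and it is still counted in its family.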

Additional observations from a re-analysis of the deposited data

How the results depend on the processing

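Without each library in turn, edgeR called 0 to 751 genes higher and 0 to 1195 lower in PSCN, and 0 to 2 members higher and 0 to 24 lower; the calls of members came from leaving out PSC library 3, where 17 of the 29 named genes passed. By DESeq2, 1115 genes and 5 members were higher and 1830 genes and 29 members lower; by limma-voom with quality weights, 1788 genes and 5 members were higher and 1238 genes and 19 members lower. Genes called higher numbered 3 with the 1 CPM filter and 0 with the replicate block, with sex as a covariate and with male libraries only. Members without overlap numbered 8 to 16 higher and 22 to 43 lower without 1 library, and 18 and 51 in males only. In males, PSC has 1 library, which is assumed to vary like PSCN. Groups of fewer libraries separate more easily by chance, and the shares over all genes are not given for these smaller sets. These counts therefore cannot be read as a stronger result than the 8 higher and 22 lower with all 6 libraries. Median log2 fold changes ranged without each library from -0.48 to -0.10 (AKR1), -0.76 to -0.21 (ALDH), -2.29 to -1.45 (CES), -2.71 to -1.41 (FMO), -1.41 to -0.77 (GST), -2.50 to -1.15 (SULT), -0.66 to 0.11 (UGT) and -1.19 to -0.78 (all members). With sex as a covariate they were -0.95 (ALDH), -1.72 (CES), -1.64 (GST), -3.08 (SULT) and 1.51 (UGT). In males only they were 0.018 (AKR1), -0.93 (ALDH), -1.70 (CES), -1.62 (GST) and 0.38 (UGT). The members that passed the filter changed between fits. Over those tested with all 6 libraries, the medians in males were -0.18 (AKR1) and 1.53 (UGT). For these members the UGT median without PSC library 3 was 1.13. The AKR1 median was -0.42 with no filter, the SULT median 0.43 with the 1 CPM filter, which leaves fewer low members, and the UGT median 0.33 with the replicate block and 0.56 with limma-voom. UGT1A7C turned positive, at 0.33 with the replicate block, 1.51 with sex, 1.53 in males, 0.56 with limma-voom and -0.80 to 1.13 without each library in turn (1.13 without PSC library 3), and AKR1A1 was 0.018 in males. The cause was not tested. Replicate numbers did not pair the libraries: same-numbered deviations correlated at 0.186, -0.053 and 0.016, and not every library correlated best with its own number. With the replicate block, 0 members were called in either direction, 6 were higher and 26 lower at an unadjusted p under 0.05. Normalization by RLE or upper quartile turned no named gene.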
